A study of Homo sapiens with 4 samples.

Results

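The promoters tiled by the shortest probes are 1475 design regions out of 18028 on a human promoter-tiling array. Each lies on an autosome, spans at most 2700 bp, holds 10 or more probes that the array design counts once, and has at least 95% of its probes at the minimum length of 50 bases. They are 12.5% of the 11800 regions that meet every condition except the one on probe length, which are called eligible regions here. The rule used the probe design alone and no measured ratio, although the class was picked with earlier results of these arrays known. Of the 1475 promoters, 858 are tiled by 50-base probes only and 617 hold a single longer probe. Of their 33369 probes, 98.2% are 50 bases long, against 67.8% of all 386230 probes on the array.

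The arrays measure chromatin immunoprecipitation with an anti-HA antibody. The cells are HEK293, a human embryonic kidney cell line, stably carrying an HA-tagged transcription factor named RPF-1 under a tetracycline switch. On each of 4 arrays, DNA from induced cells kept without tetracycline for 48 h (Tet-, Cy5) was compared with DNA from uninduced cells kept with it for the same time (Tet+, Cy3). Both came from the same stable line, were fixed with 1% formaldehyde and were precipitated with the same antibody, and the dyes were not swapped. The labels do not say whether the line is 1 clone, do not spell out RPF-1, and give no genome build.

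A promoter is the stretch of DNA around a transcription start where the transcription machinery and its regulators assemble. Many human promoters, especially those of broadly expressed genes, lie in CpG islands, which are rich in G and C, while many tissue-restricted promoters are poorer in these bases. On arrays of this type, probes are lengthened where the sequence is rich in A and T so that all probes melt at similar temperatures, and the shortest probes therefore sit in GC-rich sequence. RPF-1 is also the name of a POU-domain protein first described in the retina, and POU-domain proteins bind AT-rich recognition sequences. Each reported value is a log2 ratio of induced to uninduced signal, taken relative to the typical probe of its array. A value of 0 thus means the median ratio of the array and not equal signal. Positive values mean a ratio above that median, and "higher" and "lower" are used in this sense.

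The base composition of these promoters was not measured, because a genome of the files' build was not used here. The probe-length stand-in was checked by chromosome instead, against the GC content of 22199 RefSeq promoters of protein-coding genes (GRCh38.p14, 300 bases each, counted per chromosome). Over 21 autosomes the mean share of 50-base probes in eligible regions and the mean GC content of the RefSeq promoters had a Pearson correlation of 0.856 and a Spearman correlation of 0.740. The share of eligible regions that fell into the shortest-probe class correlated with that GC content at 0.756 (Pearson) and 0.582 (Spearman). The class made up 30.5% of the eligible regions of chromosome 19, 28.0% on chromosome 22 and 23.2% on chromosome 16, where the RefSeq promoters averaged 63.3, 65.5 and 65.1% GC. It made up 3.57% on chromosome 18, 4.17% on chromosome 13 and 5.01% on chromosome 6, where they averaged 60.3, 61.0 and 58.7% GC. Chromosome 11 went the other way, with a class share of 15.5% and the lowest GC content, 58.6%. Chromosome 8 was left out, because no RefSeq promoters were listed for it. The points are whole chromosomes, so the check says nothing about a single promoter.

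Every file lists the same probes, and the ratios had standard deviations of 0.698 to 0.752 log2 over all probes. Arrays 1 and 2 belong to a series named N39 in the deposited data, and arrays 3 and 4 to a series named N44. From every ratio the median ratio of its array was subtracted, and a region's value is the mean over its probes. Nothing in the labels says that the arrays come from separate cultures, so p-values measure only the spread between these arrays. Averages over the class carry no test, since sign flips over 4 arrays cannot bring an exact two-sided p under 0.05.

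The shortest-probe promoters as a group stood close to the array median, and their level depended on the array. Their mean log2 ratio was 0.0097 in array 1, 0.031 in array 2, -0.120 in array 3 and -0.067 in array 4. Arrays 1 and 2 were thus just above 0 and arrays 3 and 4 below it, and the mean over arrays was -0.036 ± 0.069 (SD, n = 4). Of the promoters, 50.1 and 53.9% were above 0 in the N39 arrays, against 22.5 and 34.4% in the N44 arrays. The 10325 other eligible regions averaged -0.025, -0.017, 0.032 and -0.025 in arrays 1 to 4. The class was therefore above the others by 0.035 and 0.048 in arrays 1 and 2 and below them by -0.152 and -0.042 in arrays 3 and 4. That difference averaged -0.028 ± 0.092, above 0 in both N39 arrays and below 0 in both N44 arrays, and without array 3 it was 0.014.

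The 1191 eligible regions with the lowest share of 50-base probes (at most 32.0%, called long-probe regions) moved the opposite way in array 3. Their means were -0.213, -0.093, 0.301 and -0.024 in arrays 1 to 4. Array 3 was the array in which long-probe regions stood highest and shortest-probe promoters lowest.

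**Figure D1:**
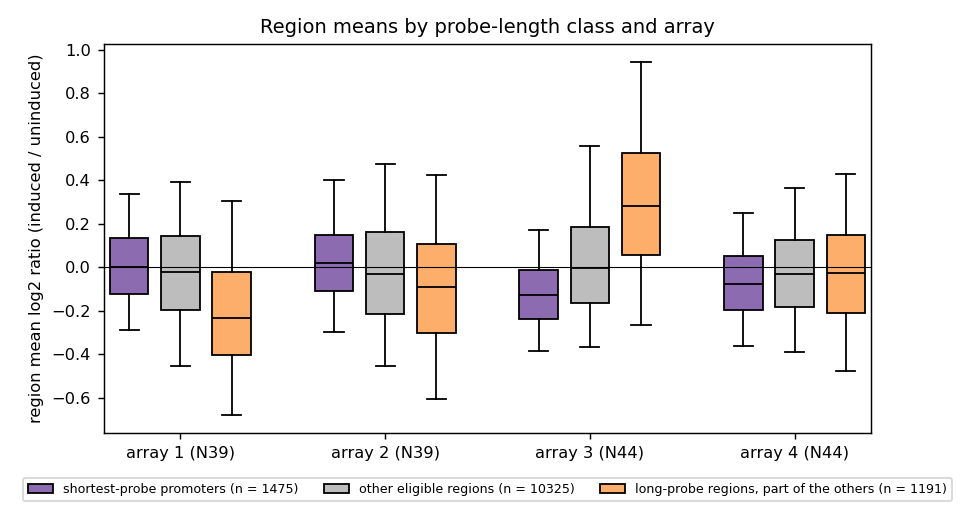
Region mean log2 ratios (y axis, induced over uninduced) in each of the 4 arrays (x axis) for the shortest-probe promoters, the other eligible regions and the long-probe regions, which are a subset of the others. Lines in the boxes are medians, boxes span the middle 50% and whiskers reach from the 5th to the 95th percentile; the shortest-probe promoters have the shortest whisker span in all 4 arrays, and their median falls from 0.021 in array 2 to -0.127 in array 3.

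The values of the shortest-probe promoters were also packed more tightly than those of the other eligible regions. The standard deviation among them was 0.196, 0.209, 0.173 and 0.189 log2 in arrays 1 to 4, against 0.258, 0.283, 0.288 and 0.231 among the others. It was 73.0 ± 9.3% of that of the others (SD, n = 4) and lower in all 4 arrays, with 60.0% in array 3 and 82.0% in array 4 as the extremes. The class holds more probes per region, with a median of 24 against 21, which narrows a mean. With regions of 20 or more probes only (1240 promoters and 6410 others), the figure was 73.9 ± 9.7%. With 50-base probes only, it was 76.9 ± 6.5%. The regions most like the class were nearly as tight. Among the 917 eligible regions with 90 to 95% of 50-base probes, the 4-array means had a standard deviation of 0.1785 log2, against 0.1614 in the class.

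Few of these promoters were called higher, that is, above the array median. The test was limma against a log2 ratio of 0 over all 17765 design regions with 10 or more probes, with adjusted p under 0.05 as the threshold. It called 78 of the 1475 higher (5.29%), where 13.9% of all tested regions were called higher. It called 194 lower (13.2%), where 13.6% of all tested regions were called lower, so the lower share was near its background and the higher share was below its own. Of the other eligible regions, 11.8% were called higher and 15.5% lower. The median of the 1475 region means was -0.040 log2, against -0.0029 over all tested regions. The called promoters had median log2 ratios of 0.31 among higher calls and -0.27 among lower calls. Sizes of 0.5 log2 or more were reached by 5 higher calls and 1 lower call, against backgrounds of 2.45% and 0.839%.

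These counts rested on the arrays used. Without array 2 there were 14 higher and 69 lower calls, without array 4 there were 22 and 33, and without array 3 there were 121 and 137. Arrays 1 and 2 alone called 88 higher and 37 lower, while arrays 3 and 4 alone called 19 and 135. After the median of 20 neighbouring regions was subtracted, 126 were higher and 159 lower. After the mean of each probe length was subtracted, 73 were higher and 333 lower. No promoter was called in opposite directions by the pairs of arrays of each series. Both series called 13 promoters higher and 22 lower. Shares over all tested regions are not given for these subsets of arrays and subtractions, so the counts have no background beside them.

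The same sign in all 4 arrays was seen in 180 of the 1475 promoters on the higher side (12.2%, against 20.7% of all tested regions). On the lower side there were 458 (31.1%, against 24.2%).

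The level of a region changed along the whole range of the share of 50-base probes. In array 3, the mean fell from 0.277 in eligible regions with under 40% of 50-base probes to 0.054 at 50 to 60%, -0.084 at 80 to 90% and -0.120 in the shortest-probe promoters. Array 1 ran the other way at the low end, from -0.177 under 40% to 0.0065 at 60 to 70%, and stayed within 0.0097 to 0.022 above that. Arrays 2 and 4 moved less, from -0.066 to 0.031 and from -0.0098 to -0.067 between the ends of the range. The 372 promoters just inside the boundary, with 95% to 95.8% of 50-base probes, averaged 0.017, 0.022, -0.114 and -0.058 in arrays 1 to 4. The 144 regions just outside it, with 94.1 to 94.7%, averaged 0.027, 0.037, -0.094 and -0.037. Called higher were 5.91% inside and 10.4% outside, and called lower 12.6 and 17.4%.

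The share of higher calls lay between 13.5 and 16.4% in the 4 bands up to 70% of 50-base probes, with the highest value at 40 to 50%. Above 70% it was lower, at 9.45% for 70 to 80%, 8.51% for 80 to 90%, 8.29% for 90 to 95% and 5.29% in the shortest-probe promoters. The share of lower calls stayed between 13.2 and 17.0% over all bands. The standard deviation of the 4-array region means fell from 0.264 to 0.161 log2 from the lowest to the highest band, with a decrease at every step.

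Probes of the same length were then compared, a comparison chosen after the values were seen. The 32752 probes of 50 bases in the shortest-probe promoters averaged 0.011, 0.036, -0.120 and -0.070 in arrays 1 to 4. The 133217 probes of 50 bases in other eligible regions averaged 0.051, 0.081, -0.011 and -0.018. At equal probe length the class was thus lower in all 4 arrays, by -0.040, -0.046, -0.109 and -0.052. The 4675 probes of 50 bases inside long-probe regions averaged 0.080, 0.281, 0.514 and 0.190. Against these, the probes of the class were lower in all 4 arrays, by -0.302 ± 0.237 (SD, n = 4). The direction in arrays 1 and 2 therefore differed between the comparison of all probes and that of 50-base probes. As region means with at least 10 such probes each, 1475 promoters were lower than 7643 other regions by -0.046 ± 0.024, again in all 4 arrays.

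Inside a region, the longer probe read lower than its 50-base neighbours. In the 617 shortest-probe promoters with a longer probe, that probe lay below the mean of the 50-base probes by -0.232, -0.403, -0.161 and -0.071 in arrays 1 to 4. In the 10275 other eligible regions with both kinds, the difference was -0.180, -0.311, -0.021 and -0.038. It was below 0 in all 4 arrays in both groups.

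**Figure D2:**
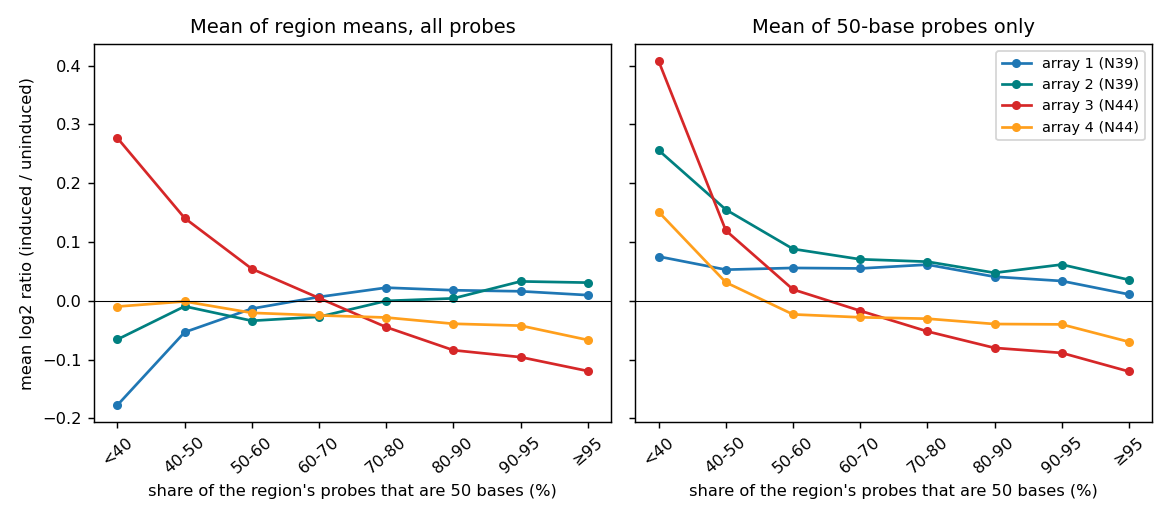
Mean log2 ratio (y axis) of eligible regions in 8 bands of the share of 50-base probes (x axis, percent), 1 line per array. On the left, where all probes are averaged, arrays 1 and 3 start on opposite sides of 0 (-0.177 and 0.277) in the lowest band; on the right, with 50-base probes only, all 4 arrays are higher in the lowest band than in the shortest-probe promoters at the far end.

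Among single promoters, the 10 highest and 10 lowest of those past the threshold with 1 sign in all arrays were examined. They are given by position, because gene names need an annotation of the files' build. The highest lay on chromosome 19, positions 56582509 to 56585209, with 24 probes, all of 50 bases. The arrays gave 0.74, 0.75, 1.16 and 0.59, a mean of 0.81 ± 0.25 log2 (SD, n = 4) with adjusted p = 0.00050 (limma). Its ratio of induced to uninduced signal was thus 1.75-fold that of the array median. All arrays were well above 0, and 21 of its 24 probes had a mean above 0. After subtraction of neighbouring regions it stood at 0.68. Among all 17765 tested regions, 65 had a higher mean.

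The signal of that promoter was uneven along its length. Its bin of 500 bp from 56583509 to 56583958 reached 1.52 ± 0.36, with 1.72, 1.21, 1.92 and 1.21 in the 4 arrays. The next bin, from 56584009 to 56584458, fell to 0.12 ± 0.14 and was not called (adjusted p = 0.49, limma). The other 3 bins were called higher, at 0.99, 0.94 and 0.52.

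The second highest lay on chromosome 10, positions 134999901 to 135002601, with 0.66, 0.95, 0.53 and 0.57 in the arrays. Its mean was 0.68 ± 0.19 (adjusted p = 0.00064, limma), or 1.60-fold the array median. The first bin there, from 134999901 to 135000350, was at -0.075 ± 0.150, and the 4 bins from 135000401 to 135002350 were at 0.72, 0.98, 0.84 and 1.04. The change from the first bin to the rest was seen in all 4 arrays.

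The third, on chromosome 12 from 48650691 to 48653391, had the widest spread of the 10. Its arrays gave 0.37, 1.15, 0.030 and 0.56, a mean of 0.53 ± 0.47 (adjusted p = 0.018, limma). Array 2 was far above the others, and without it the mean was 0.32 and the promoter was not called (adjusted p = 0.084). It was not called without array 4 either (adjusted p = 0.080).

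Next came chromosome 22, positions 35875408 to 35878108, at 0.51 ± 0.20 over 10 probes, the fewest the rule allows. On chromosome 19, positions 12722271 to 12724971 gave 0.63, 0.65, 0.17 and 0.55, a mean of 0.50 ± 0.23. All 5 of its bins were called higher, from 0.36 to 0.93, and array 3 was the lowest of the arrays. The other chromosome 19 promoters of the 10 lay at 43491774 to 43494474 (0.46 ± 0.20) and 46414462 to 46417162 (0.46 ± 0.16). Chromosome 17 held 37560048 to 37562748 (0.45 ± 0.16) and 33752719 to 33755419 (0.41 ± 0.11). The promoter on chromosome 12 from 6891674 to 6894374 had the smallest spread of the 10, with 0.33, 0.48, 0.48 and 0.41 and a mean of 0.43 ± 0.07. Its bin 3, 6892674 to 6892923, stood at 1.04 ± 0.28, and its bin 4, 6893289 to 6893638, at -0.044 ± 0.272. Adjusted p of the 10 ranged from 0.00050 to 0.018 (limma).

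The lowest promoter lay on chromosome 2, positions 176670575 to 176673275, with 26 probes. The arrays gave -0.45, -0.58, -0.58 and -0.62, a mean of -0.56 ± 0.07 (adjusted p = 0.00065, limma) or 1.47-fold below the array median. The arrays lay close together, 24 of the 26 probes had a mean below 0, and 4 of 5 bins were called lower. The exception was bin 4, 176672075 to 176672524, at -0.14 ± 0.20, between bins at -0.48 and -0.69. Among all tested regions, 87 had a lower mean.

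Chromosome 5 held 3 of the 10 lowest. Positions 178982776 to 178985476 gave -0.28, -0.63, -0.56 and -0.40, a mean of -0.47 ± 0.16. Positions 174803269 to 174805969 gave -0.42 ± 0.05 and 134397387 to 134400087 gave -0.40 ± 0.04, the smallest spreads among all 20 named promoters. In the former the arrays ran from -0.48 to -0.37 and in the latter from -0.44 to -0.37, so all stood clear of 0.

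On chromosome 14, positions 76806908 to 76809608 were at -0.44 ± 0.07, with the end bins at -0.48 and -0.72 and a bin at -0.14 between them. Chromosome 11 held 34334878 to 34337578 (-0.43 ± 0.06, with 4 of 5 bins called lower) and 63508260 to 63510960 (-0.39 ± 0.14 over 11 probes). On chromosome 3, positions 32832313 to 32835013 gave -0.30, -0.13, -0.56 and -0.77, a mean of -0.44 ± 0.28. The N44 arrays were lower there than the N39 arrays, and without array 4 the promoter stood at -0.33 and was not called (adjusted p = 0.073, limma). Chromosome 19 held 53799611 to 53802311 (-0.42 ± 0.20 over 13 probes) and 47438076 to 47440776 (-0.41 ± 0.16). Adjusted p of the 10 lowest ranged from 0.00065 to 0.0098 (limma). After subtraction of neighbouring regions, all 20 named promoters kept their sign and their call.

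**Figure D3:**
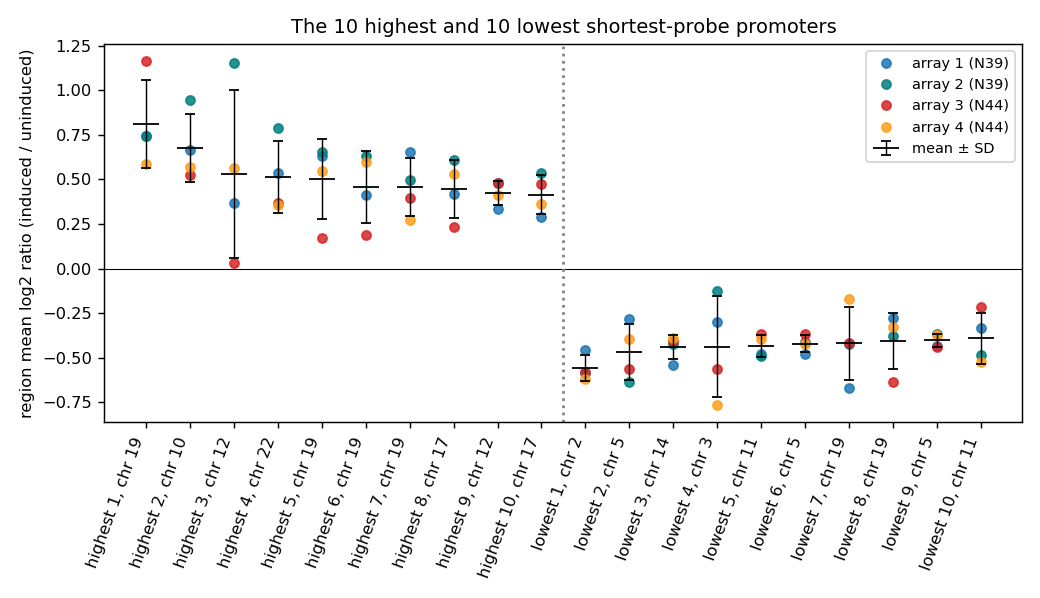
Region mean log2 ratio (y axis) of the 10 highest and 10 lowest shortest-probe promoters (x axis, in rank order with the chromosome), 1 point per array; horizontal marks and bars are the mean and SD of the 4 arrays. The highest promoters reach 0.81 and the lowest -0.56, and the third highest has arrays from 0.030 to 1.15.

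Within promoters, signal was tested in bins of 500 bp with at least 3 probes. Of 6500 bins in the class, 607 were called higher (9.34%, against 17.0% of all 76092 bins) and 965 lower (14.8%, against 16.3%; limma, adjusted p under 0.05). The called bins had medians of 0.50 and -0.45 log2. Past 0.5 log2 in size were 311 higher bins (background 10.9%) and 321 lower bins (background 7.99%). At least 1 higher bin was present in 477 promoters (32.3%, against 47.1% of all regions with a bin). At least 1 lower bin was present in 703 (47.7%, against 48.4%), which is near the background. Both directions were present in 175 promoters (11.9%, against 17.0% of the other eligible regions with a bin). No bin was called in 470 promoters (31.9%, against 22.8%). At least 3 higher bins were found in 15 promoters (1.02%, against 5.51% of all regions with a bin) and at least 3 lower bins in 42 (2.85%, against 3.99%). Leaving out array 1 gave 347 higher and 563 lower bins, leaving out array 2 gave 308 and 577, and leaving out array 4 gave 375 and 474. Leaving out array 3 gave 684 and 752. Shares over all bins are not given for these subsets of arrays, so these 4 pairs of counts have no background beside them.

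The promoters with the widest range between bins held both a raised and a lowered bin, next to each other in 3 of the 5 and with 1 uncalled bin between them in the other two. On chromosome 19, positions 55832614 to 55835314, bin 3 (55833614 to 55834063) stood at 1.00 ± 0.28 and bin 5 (55834614 to 55835063) at -0.72 ± 0.14. In bin 3 the arrays gave 1.08, 0.86, 0.71 and 1.34, and in bin 5 -0.62, -0.84, -0.83 and -0.59, so the bins did not overlap in any array. The whole promoter was at 0.34 ± 0.13 and called higher (adjusted p = 0.0081, limma), but not without array 2 (adjusted p = 0.053) or array 4 (0.063).

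The other 4 were not called as whole promoters. On chromosome 20, positions 36226614 to 36229314, bin 3 was at 1.01 ± 0.19 and bin 4 at -0.53 ± 0.17, and the mean was 0.20 ± 0.16. Also on chromosome 20, positions 41625950 to 41628650 had bin 2 at 1.11 ± 0.29 and bins 4 and 5 at -0.36 and -0.40, with a mean of 0.084 ± 0.123. On chromosome 3, positions 38665667 to 38668367, bin 3 at 1.10 ± 0.39 was followed by bin 4 at -0.41 ± 0.28. On chromosome 19, positions 47478456 to 47481156, bin 1 at -0.41 ± 0.26 was followed by bin 2 at 1.09 ± 0.49. In each of the 5 promoters the highest and the lowest bin were both called (limma, adjusted p from 0.00019 to 0.036). The promoters were picked for the range between these bins, so their calls and opposite signs are description only. Without array 3, the promoter at 36226614 (0.27, adjusted p = 0.018) and that at 47478456 (0.35, adjusted p = 0.0056) were called higher as a whole. The promoter at 36226614 was also called with array weights (adjusted p = 0.023) and with 50-base probes only (0.031), and that at 47478456 with a term for the array series (0.043) and in arrays 1 and 2 alone (0.0042). The promoter on chromosome 3 was called after subtraction of neighbouring regions (0.26, adjusted p = 0.039, limma).

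The 3 flattest promoters by the mean and its spread were on chromosome 11 (124724219 to 124726919, mean 0.0003 ± 0.0306), chromosome 8 (145703159 to 145705859, 0.00038 ± 0.0357) and chromosome 19 (54636096 to 54638796, -0.0051 ± 0.0317). Each still held a single bin called higher, at 0.61, 0.35 and 0.40 log2 respectively.

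**Figure D4:**
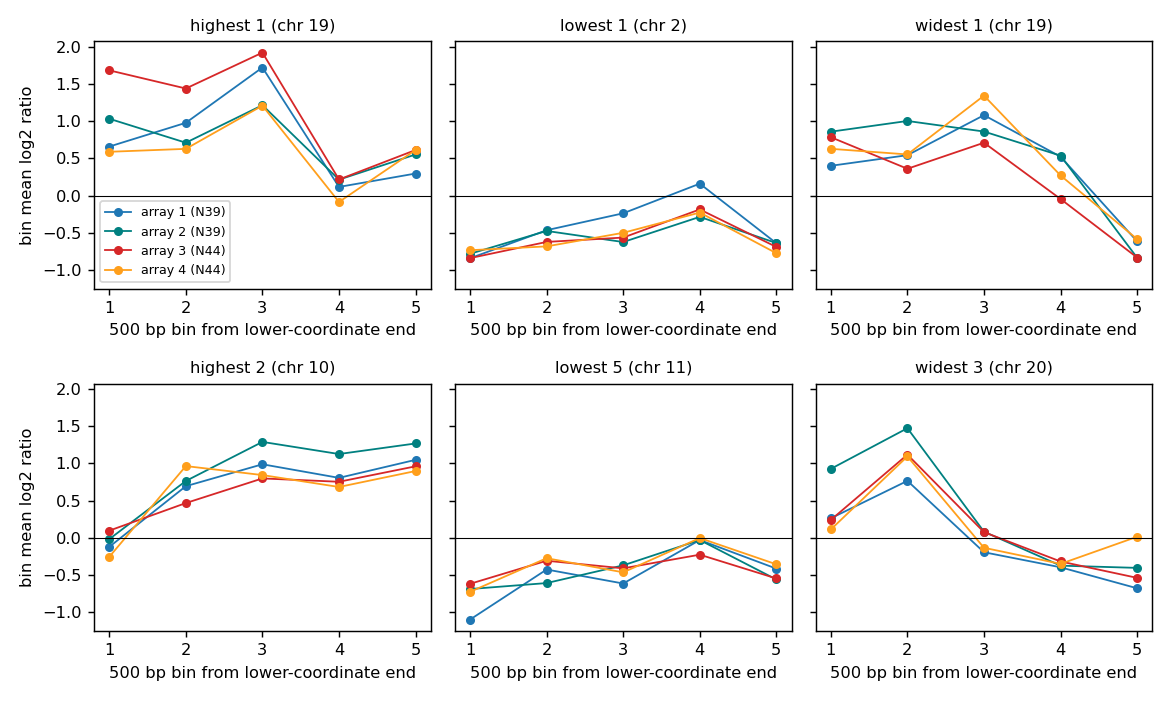
Bin mean log2 ratio (y axis) in consecutive 500 bp bins from the lower-coordinate end (x axis) of 6 shortest-probe promoters, 1 line per array. The highest promoter peaks in its bin 3 at a mean of 1.52 and drops to 0.12 in bin 4, and the widest-range promoter of chromosome 19 goes from 1.00 to -0.72.

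Averaged over the class, position inside the promoter made little difference. In steps of 300 bp from the lower-coordinate end, the 4-array mean stayed between -0.060 (2100 to 2400 bp) and -0.025 (900 to 1200 bp). Probes 900 to 1200 bp from the nearer end minus those within 300 bp of it gave 0.029, -0.023, 0.012 and 0.020 in arrays 1 to 4, a mean of 0.0094 ± 0.0228. That difference is within the spread of the arrays. The other eligible regions gave 0.010 ± 0.044 for the same comparison. The files give no strand, so the direction of transcription could not be used.

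The arrays shared their pattern over these promoters, and between single probes the shared signal dropped sharply with distance. Over the 1475 promoters, the 6 array pairs had Pearson correlations of 0.459 to 0.677 (median 0.634) and Spearman correlations of 0.440 to 0.672 (median 0.623). Over the other eligible regions, the Pearson median was 0.580, and over the long-probe regions among them it was 0.708. The arrays share a probe set, so these are descriptions without a p. The mean covariance between different arrays at the same probe was 0.226 in the class and 0.275 in the other eligible regions. At probes 100 bp apart it was 0.042 in the class, 18.6% of the same-probe value, against 0.099 or 36.2% in the others. At 300 bp it was 9.27% against 15.4%, and at 500 bp 6.04% against 7.63%. With 50-base probes alone, the others kept 29.0% at 100 bp, so a gap to the class remained at equal probe length.

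**Figure D5:**
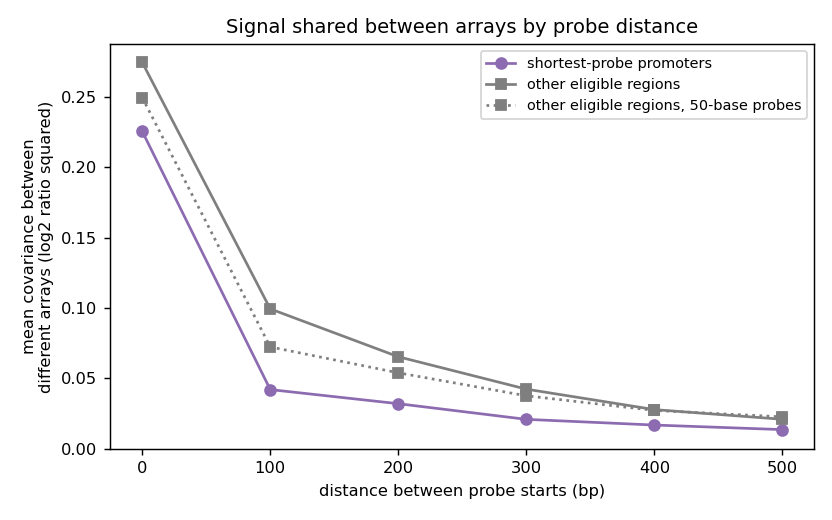
Mean covariance of log2 ratios between different arrays (y axis) for probes at increasing distance (x axis, bp) in the shortest-probe promoters, the other eligible regions, and the 50-base probes of the others. All lines drop sharply between 0 and 100 bp, and the shortest-probe promoters are lowest at each distance, with 0.042 at 100 bp against 0.099 in the others.

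The level of the class differed between the array series. The mean of the N44 arrays was below that of the N39 arrays in 79.9% of the 1475 promoters, by -0.113 log2 on average. In the other eligible regions it was below in 48.2%, with an average difference of 0.025. Despite the offset, the ranking was shared, with a Pearson correlation of 0.700 and a Spearman correlation of 0.679 between the series means over the promoters. The correlations of single arrays did not split by series. Arrays 2 and 4, from different series, gave 0.676 (Pearson), against 0.677 for arrays 1 and 2 and 0.6515 for arrays 3 and 4. The remaining pairs across series were lower, at 0.4585, 0.5625 and 0.616. What the series names stand for is not given in the labels, and with 2 arrays each, series and single array cannot be told apart.

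By chromosome, the class followed the other regions in part. The chromosome means of the class and of the other eligible regions correlated at 0.598 (Pearson) and 0.544 (Spearman) over 22 autosomes. The class was highest on chromosome 12, at 0.055 ± 0.086 over 46 promoters, with 0.100, 0.140, -0.057 and 0.037 in the arrays and 8 promoters called higher against 3 lower. It was lowest on chromosomes 5 and 10, at -0.101 ± 0.058 over 49 promoters and -0.100 ± 0.076 over 46 promoters. On each of these, 1 promoter was called higher and 13 lower. The class was below 0 in all arrays there, as it also was on chromosomes 2, 4, 8, 13 and 14. The other eligible regions of chromosome 5 stood at 0.045, so the class lay below them by -0.082, -0.078, -0.289 and -0.135 in arrays 1 to 4. Chromosome 20 also had the class below the others in all 4 arrays (-0.110 ± 0.067), as did chromosome 17 (-0.064 ± 0.046). Chromosome 19 held the most promoters of the class (214), with 22 called higher and 20 lower. The difference from the others there was -0.0017 ± 0.0319. Over all tested regions 13.9% were called higher and 13.6% lower. Calls outside the class are not given by chromosome, so these counts have no background of their own.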

How the data were processed

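Per the labels' protocols, fixed chromatin was sheared to about 500 bp, precipitated with 5 µg of anti-HA antibody, amplified, and labelled with Cy5 (Tet-) or Cy3 (Tet+). The authors deposited, for each of 4 arrays, the log2 ratio of the Tet- to the Tet+ channel at every probe, written by NimbleScan per the file headers. The log base is not written there and was taken as 2. The medians near 0 were read as a biweight mean already subtracted. The biweight means given were -0.916, -1.05, -0.592 and -0.586 in arrays 1 to 4, so 0 does not stand for equal raw signal. What software version, background correction and genome build were used is not given in the sources used here; coordinates are those of the files.

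Arrays were centred on their median probe and probes were averaged per design region (10 or more probes) or per 500 bp bin (3 or more). Regions and bins were tested against 0 with limma 3.58.1 (R 4.3.3; a fit of the mean alone, two-sided, Benjamini-Hochberg adjustment over all tested features, threshold 0.05). The array count limits the precision. Members, lists and tests were chosen with earlier results of these data known. The named promoters are the 10 highest and 10 lowest called with 1 sign in all arrays, the 5 with the widest bin range, and the 3 with the smallest sum of absolute mean and SD. Promoters on unplaced contigs (1 fitted the other limits) were left out. Alternatives were other centring and scaling, probe-length and neighbour subtraction, other limits, bins and moderation, and fewer arrays.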

Additional observations from a re-analysis of the deposited data

Results flagged for a closer look

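Among 63 sets of array values reported above, Dixon's test at the 95% level picked out 1, where 3.15 would be expected by chance in unselected sets. Sets of named promoters were picked by their array values, so that expectation is only a guide. It was the flat promoter starting at 54636096 on chromosome 19. Array 2 stood at 0.042 log2 there, while arrays 1, 3 and 4 lay between -0.024 and -0.014.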

How the results depend on the processing

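The use of 50-base probes only and the ratio of spreads were chosen after the data were seen. Shares over all tested regions or bins are not given for most settings below, so those counts have no background beside them. The exceptions are the minimum change and the limits on the share of 50-base probes, which use the backgrounds given above. Called promoters numbered 128 higher and 327 lower with array weights, 154 and 319 with a limit of 90% of 50-base probes, 44 and 107 with all probes at 50 bases, and 5 and 1 with a minimum change of 0.5 log2. The 90% limit added 917 regions, of which 8.29% were called higher and 13.6% lower. With all probes at 50 bases, 5.13 and 12.5% of 858 promoters were called. Neighbour subtraction, on autosomes only, gave 126 higher, probe-length subtraction 333 lower, arrays 3 and 4 alone 19 higher, and arrays 1 and 2 alone 37 lower. The share of higher among all calls was 28.7%, and it was 44.2% after neighbour subtraction, 18.0% after probe-length subtraction, 83.3% with the minimum change, 16.9, 46.9 and 40.0% without arrays 2, 3 and 4, 70.4% with arrays 1 and 2 and 12.3% with arrays 3 and 4. It was 36.8% (88 higher and 151 lower) when arrays were centred on autosomal probes that the design counts once. Trend and robust moderation gave 18.9% (63 and 270). Among bins the share of higher was 38.6%, and it was 56.2% with arrays 1 and 2 and 29.1% with arrays 3 and 4. It was 49.2% with the minimum change and 47.6% without array 3. Trend and robust moderation gave 29.8% and probe-length subtraction 31.0%. Leaving out each array gave 14 to 121 higher and 33 to 157 lower. Called bins numbered 1387 higher and 2022 lower when bins were 250 bp long, 348 and 569 at 1000 bp, 1022 and 1489 at 90%, 318 and 523 with all probes at 50 bases, and 311 and 321 with a minimum change. The N44 arrays by themselves gave 155 higher and 377 lower bins, the N39 arrays 544 lower, and leaving out each array gave 308 to 684 higher and 474 to 752 lower. The median of the promoters was 0.012 in the N39 arrays and -0.099 in the N44 arrays, and -0.073 to -0.0095 under the other settings run with all 4 arrays. The difference from the other eligible regions was 0.041 and -0.097 with these pairs of arrays. Of the 20 highest and lowest promoters, none changed sign. The minimum change removed 5 calls among the 10 highest and 9 among the 10 lowest. The other losses were those given above without single arrays, and with arrays 3 and 4 alone the promoters on chromosome 12 from 48650691 (adjusted p = 0.105, limma) and chromosome 19 from 53799611 (0.062), and with arrays 1 and 2 alone that on chromosome 3 (0.214). Apart from settings that by construction use more or fewer promoters or features, fewer arrays or a harder limit, the cause was not tested. Each ratio already pairs the 2 conditions within an array. A term for the array series gave 92 higher and 218 lower promoters. Background intensities were not used here, and the limit they set is unknown.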

Other observations

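Single probes at or beyond 1 log2 in all 4 arrays were sparse in the shortest-probe promoters. Of 33369 probes, 62 (0.186%) were at least 1 log2 higher in every array and 82 (0.246%) at least 1 log2 lower, against 0.344 and 0.622% of the 210947 probes of the other eligible regions. The 62 higher probes lay in 55 of the 1475 promoters, 3 of which held more than 1. Of the 10325 other eligible regions, 68 held more than 1 such higher probe. The 82 lower probes lay in 82 different promoters of the 1475, while 117 of the 10325 other eligible regions held more than 1 such lower probe. These counts were taken after the values were seen and carry no test.

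Neighbouring promoters of the class had nearly unrelated ratios. For 178 pairs of consecutive shortest-probe promoters less than 20 kb apart, the Pearson correlation of their 4-array means was 0.027, and for 369 pairs 20 to 100 kb apart it was 0.087. Consecutive pairs of the other eligible regions gave 0.131 over 1178 pairs and 0.161 over 3656 pairs. Pairs share the arrays and overlap in their members, so no p is given.

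The level also moved with the number of probes a promoter holds. The 76 promoters with 10 to 14 probes averaged 0.0071 ± 0.0692 log2 (SD over 4 arrays), with 8 called higher and 8 lower (10.5% each). The 561 promoters with 25 to 27 probes averaged -0.056 ± 0.074, with 18 called higher (3.21%) and 81 lower (14.4%). The promoters with 10 to 14 probes were above those with 25 to 27 in all 4 arrays. Of all tested regions, 13.9% were called higher and 13.6% lower. The part of probe number in the other results was not tested beyond the comparison at 20 or more probes.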
